A study of Homo sapiens with 6 samples.

Results

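The 10 genes described here are those of the interleukin 1 (IL1) and interleukin 6 (IL6) cytokine systems chosen by symbol (IL1A, IL1B, IL1R1, IL1RAP, IL6, IL11, LIF, IL6R and IL6ST), with IL24 added. They are 10 of the 60617 gene IDs used, and each symbol matched 1 ID. RNA-seq was performed on 6 libraries of human melanoma cells, 2 per group. PBRT16 and PBRT15 are lines derived from in vivo tumors resistant to PLX8394, a "paradox breaker" BRAF inhibitor, and both were kept in 500 nM PLX8394. The parental cells were 1205LuTR, the 1205Lu melanoma line modified to carry a GAL4-ELK1 reporter, and received DMSO. All cells were grown in the same medium with fetal bovine serum and insulin. Each resistant group is 1 line. Resistance, derivation from an in vivo tumor and drug go together, so that they cannot be told apart in a difference from parental cells. Whether the 2 libraries of each line were grown as separate cultures is not stated in the sources used here, and the p-values then reflect the spread between these libraries alone, which may be technical. The comparisons ask how the PLX8394-resistant lines differed from parental cells, and from each other.

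IL1 alpha and IL1 beta, the products of IL1A and IL1B, are inflammatory cytokines that bind the receptor IL1R1. IL1R1 then recruits the accessory protein encoded by IL1RAP, and the complex signals through MYD88 and IRAK kinases to NF-kB. The IL6 family shares the signal-transducing chain gp130, encoded by IL6ST, which IL6 reaches through IL6R, IL11 through IL11RA and LIF through LIFR, and which activates JAK kinases and STAT3. IL24 is by sequence a cytokine of the IL10 family and is read here beside that family. In melanoma, IL1 and IL6 are known as cytokines that tumor cells themselves can secrete.

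The libraries had total values between 27877963 and 29580752. Mitochondrial genes took 4.43% and 4.53% of the value in PBRT16 cells, 4.09% and 4.10% in PBRT15 cells, and 6.30% and 6.15% in parental cells. Values below are the deposited normalized signal for the whole gene, whose read depth is unknown. Fold changes are on the log2(value + 1) scale, which understates changes of genes with low values. Adjusted p-values are from limma fitted over 16555 genes, with Benjamini-Hochberg adjustment, and a gene was called higher or lower where its adjusted p did not exceed 0.05 and its value differed at least 2-fold. The 8 melanocyte lineage markers summed to 2240 and 2203 in PBRT16 cells, to 854.2 and 990.3 in PBRT15 cells, and to 19493 and 16620 in parental cells. MITF was nearly all of the sum in both resistant lines and was called higher in both (log2 fold changes 4.28 in PBRT16 and 2.96 in PBRT15). It had 2209.50 and 2158.89 in PBRT16 cells, 823.47 and 926.99 in PBRT15 cells, and 108.98 and 113.29 in parental cells. SOX10, S100B and MIA were called lower in both lines, PMEL and DCT were not called, and MLANA did not pass the filter. SOX10, a melanocyte lineage factor, had 1.49 and 0.78 in PBRT16 cells, 0 and 0.79 in PBRT15 cells, and 4360.50 and 4102.51 in parental cells, and TYR was listed at 0 in all 6 libraries.

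IL1B had the largest fall among the members and IL6 the largest rise, and IL1A lies beside IL1B, so the promoter sequences of these 3 genes are shown. They are the RefSeq sequences (GRCh38.p14) of the 250 bases before an annotated start, 5′ to 3′ on the gene's strand, with motif matches on either strand in capitals. The IL1B promoter is at chr2:112836780-112837029 on the minus strand, an IL1A promoter at chr2:112784494-112784743 on the minus strand, and the IL6 promoter at chr7:22726950-22727199 on the plus strand.
IL1B: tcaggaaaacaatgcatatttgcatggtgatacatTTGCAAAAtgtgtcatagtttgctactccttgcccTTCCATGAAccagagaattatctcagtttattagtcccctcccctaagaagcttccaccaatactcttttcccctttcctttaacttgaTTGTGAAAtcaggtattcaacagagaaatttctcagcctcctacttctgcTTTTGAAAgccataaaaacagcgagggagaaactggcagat
IL1A: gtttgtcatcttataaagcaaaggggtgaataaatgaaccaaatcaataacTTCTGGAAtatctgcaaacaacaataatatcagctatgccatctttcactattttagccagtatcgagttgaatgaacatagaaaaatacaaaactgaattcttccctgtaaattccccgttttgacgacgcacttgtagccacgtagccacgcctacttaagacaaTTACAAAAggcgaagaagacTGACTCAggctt
IL6: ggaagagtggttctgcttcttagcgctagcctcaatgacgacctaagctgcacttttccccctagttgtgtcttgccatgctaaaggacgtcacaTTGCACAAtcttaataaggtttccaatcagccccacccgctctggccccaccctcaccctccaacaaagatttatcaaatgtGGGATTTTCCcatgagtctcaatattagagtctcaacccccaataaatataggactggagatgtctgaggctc
The motifs searched on both strands were an NF-kB consensus, AP-1 (TGANTCA), C/EBP (TTNNGNAA), CRE (TGACGTCA) and STAT (TTCNNNGAA). The IL6 window held an NF-kB match that begins 73 bases before the start and a C/EBP match that begins 155 bases before it. The IL1A window shown held an AP-1 match that begins 12 bases before the start, and C/EBP matches. RefSeq has a second IL1A start, not printed, whose window (chr2:112784401-112784650) overlaps this one and held AP-1 matches that begin 105 and 55 bases before that start. The IL1B window held C/EBP matches and a STAT match that begins 180 bases before the start. Of 35116 promoter windows of this length, 5.2% held the NF-kB consensus, 6.6% AP-1, 33.2% C/EBP, 1.6% CRE and 6.6% STAT, so a C/EBP match is common. A match only describes the letters of these windows. Of the 10 genes, 9 had a promoter in the RefSeq table used, and LIF had none.

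Of the 10 genes, 9 passed the filter on low values, IL1A only through the parental libraries, and IL24 did not pass. The direction of the IL1A calls counted here was thus fixed by the filter. In PBRT16 cells 8 of the 9 were called against parental cells, where 23.1% of all tested genes were called, 3 higher (13.1% of all genes) and 5 lower (9.95%). PBRT15 cells also had 8 calls against parental cells, 3 higher and 5 lower, against 23.6% of all genes called, 13.8% higher and 9.85% lower. The same 8 genes were called in the same direction in both lines, which share the parental libraries. IL6, IL6ST and IL1R1 were higher, and IL1A, IL1B, IL1RAP, IL11 and LIF were lower. The median size of the difference from parental cells was 2.02 (log2) over the 9 members in PBRT16 and 2.89 in PBRT15, against 0.52 over all tested genes in each comparison. Both resistant libraries lay beyond both parental libraries for 9 of 9 tested members in each line, which held for 76.1% of all tested genes in PBRT16 and 74.9% in PBRT15. The members were chosen with earlier results known, and these shares describe them without supporting a direction.

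**Figure D1:**
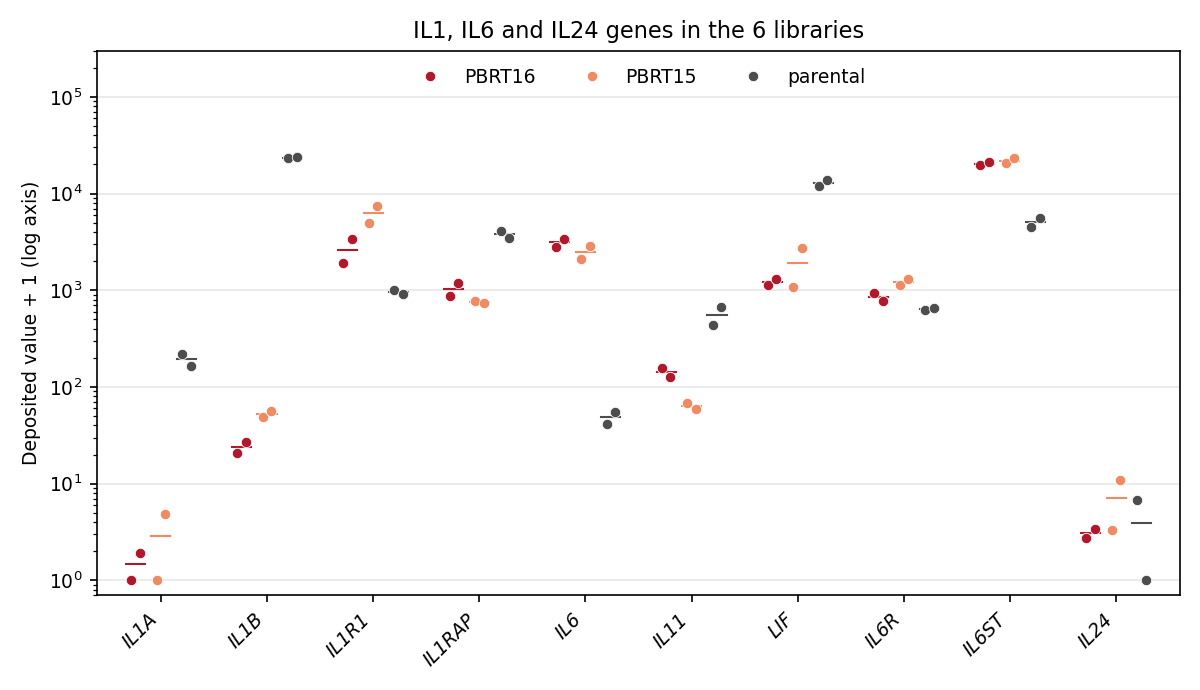
Deposited value + 1 (log axis) of the 10 genes in each library. Points are single libraries and bars the mean of 2, for PBRT16, PBRT15 and parental cells from left to right. IL1B sits between 19.91 and 56.09 in the 4 resistant libraries and at 23207.72 and 23757.53 in parental cells, and IL6 sits at 2108.89 or above in the resistant libraries and at 40.58 and 54.60 in parental cells.

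The IL1 ligands were almost lost from both resistant lines. IL1B (chr2:112829751-112836816, minus strand, GRCh38, GENCODE v44) had 19.91 and 25.83 in PBRT16 cells, 47.84 and 56.09 in PBRT15 cells, and 23207.72 and 23757.53 in parental cells. The groups do not overlap, and the parental libraries differ from each other far less than from any resistant library. The log2 fold change was -9.95 ± 0.17 (SE) in PBRT16, a 992-fold lower value (adjusted p = 4.56e-05 by limma), and -8.80 ± 0.17 in PBRT15, a 445-fold lower value (adjusted p = 5.14e-05 by limma). In bulk libraries, fewer cells of a type and less RNA per cell cannot be told apart.

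IL1A, which lies 45.3 kb from IL1B on the same strand (chr2:112773925-112784493), had 0 and 0.94 in PBRT16 cells, 0 and 3.82 in PBRT15 cells, and 219.45 and 163.97 in parental cells. Every parental library exceeded every resistant one by a wide margin. The log2 fold change was -7.10 ± 0.81 (SE) in PBRT16 (adjusted p = 0.00323 by limma) and -6.44 ± 0.81 in PBRT15 (adjusted p = 0.0042 by limma). IL1A passed the filter only through the parental libraries, so it could only be called lower. Its p-values therefore do not support the direction. Since the resistant values are near 0, the size depends on the pseudocount and on 1 library: other settings gave -7.81 to -5.16 in PBRT16, and leaving out replicate 1 or 2 of PBRT15 gave -5.31 and -7.58 in that line. Per kb of exon, the level of IL1B in parental cells was 82.1 times that of IL1A.

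Of markers of cell types known to make IL1, the 8 leukocyte markers summed to 2263 and 3163 in PBRT16 cells, 2730 and 2269 in PBRT15 cells, and 840.8 and 1265 in parental cells, nearly all of it CD68, which other cells also express. CD3E was listed at 0 in all 6 libraries, and PTPRC, the pan-leukocyte marker CD45, was at most 2.72, with 0 and 0.58 in parental cells, where IL1B was high. The 6 keratinocyte markers summed to 292.2 and 298.1 in PBRT16 cells, 368.1 and 315.6 in PBRT15 cells, and 365.4 and 350.8 in parental cells. Most of each sum was KRT10, which was not called in either line, so the sums say little about the other markers. KRT14, a basal keratinocyte keratin, did move with IL1A and IL1B, with 1.64 and 1.08 in PBRT16 cells, 2.35 and 1.59 in PBRT15 cells, and 42.30 and 32.58 in parental cells, while KRT5 and TP63 stayed at or below 4.44 in every library. The part of KRT14-expressing cells in the IL1 differences was not tested.

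The receptor chains for IL1 moved apart. IL1R1, the ligand-binding chain (chr2:102064544-102179874, plus strand), had 1901.20 and 3367.92 in PBRT16 cells, 4996.69 and 7458.65 in PBRT15 cells, and 995.43 and 919.80 in parental cells. Both resistant lines lay above the parental cells, with a wide spread between their own libraries. The log2 fold change was 1.40 ± 0.34 (SE) in PBRT16 (adjusted p = 0.0293 by limma) and 2.67 ± 0.34 in PBRT15 (adjusted p = 0.00444 by limma). The PBRT16 call was lost without a filter on low values (adjusted p = 0.0705 by limma), without either parental library (0.0993 without replicate 1 and 0.109 without replicate 2), and without PBRT16 replicate 2 (log2 fold change 0.99, adjusted p = 0.0851).

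IL1RAP, the accessory chain that signaling requires (chr3:190514051-190659750, plus strand), went the other way. It had 868.81 and 1196.26 in PBRT16 cells, 777.53 and 742.16 in PBRT15 cells, and 4121.33 and 3497.88 in parental cells, without overlap. On the log2 scale it differed by -1.90 ± 0.20 (SE) in PBRT16 (adjusted p = 0.00254 by limma) and -2.32 ± 0.20 in PBRT15 (adjusted p = 0.00144 by limma). Per kb of exon, the level of IL1RAP was 0.249 times that of IL1R1 in PBRT16 cells, 0.0775 times in PBRT15 cells and 2.53 times in parental cells.

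**Figure D2:**
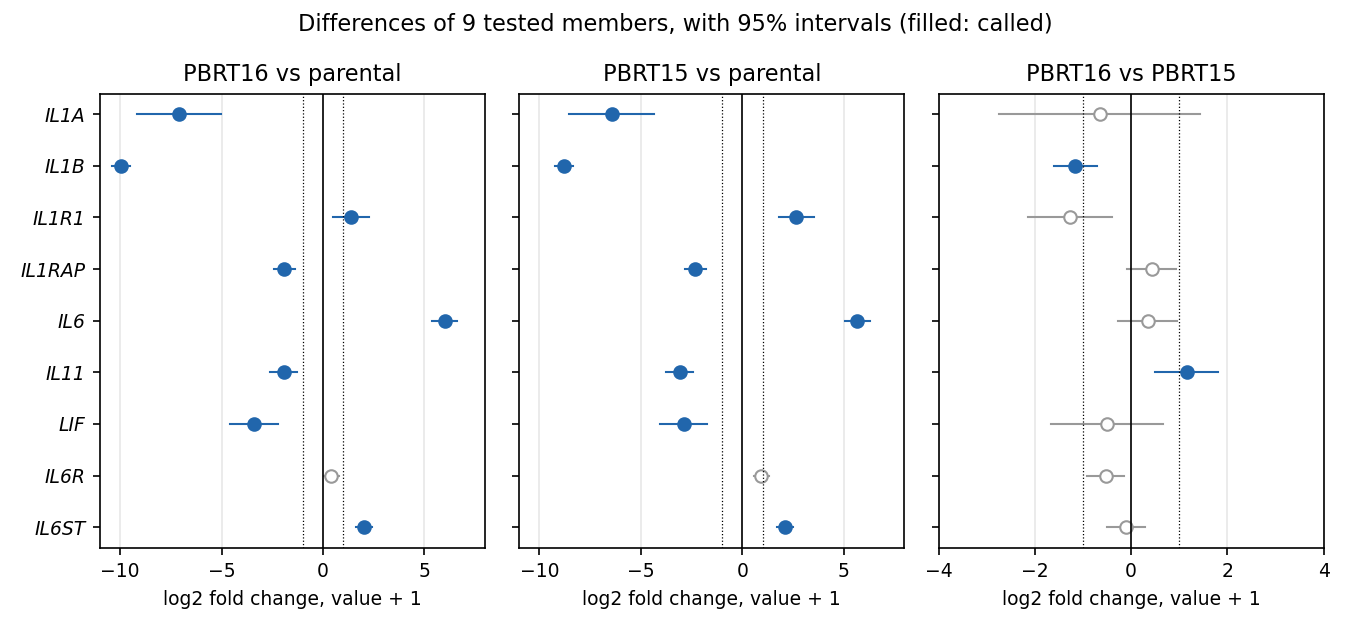
Log2 fold changes (value + 1) of the 9 tested members with 95% intervals in PBRT16 and PBRT15 cells, each against parental cells, and in PBRT16 against PBRT15 cells. Filled points were called, and dotted lines mark a 2-fold difference. In both comparisons with parental cells, IL1B is lowest, at -9.95 and -8.80, and IL6 highest, at 6.01 and 5.67, whereas in PBRT16 against PBRT15 cells IL1B and IL11 alone were called.

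The other genes of the IL1 family were mostly silent in all cells. None of the 9 other ligands and antagonists passed the filter. IL1RN, the receptor antagonist, IL18, IL33, IL36A, IL36B, IL36RN and IL1F10 stayed at or below 3.93 in every library. IL36G reached 17.54 and IL37 reached 9.04, both in parental replicate 1. Of 9 other receptors and decoys, 4 were tested, with 1 higher and 1 lower in PBRT16 and 2 higher and 1 lower in PBRT15. Over all tested genes, 23.1% were called in PBRT16 and 23.6% in PBRT15. IL18BP, a secreted decoy for IL18, was higher in both lines, with 286.89 and 333.85 in PBRT16 cells, 205.92 and 254.25 in PBRT15 cells, and 93.62 and 81.36 in parental cells (log2 fold changes 1.81 in PBRT16 and 1.38 in PBRT15, adjusted p = 0.00191 and 0.00409 by limma). SIGIRR, an inhibitory receptor of the family, was called in PBRT15 only, at 1.69 (adjusted p = 0.00611 by limma), with 0.98 in PBRT16 (adjusted p = 0.0303, below a fold of 2), and the lines were not called different from each other. IL1RAPL1, a synaptic receptor related to IL1RAP, was lower by -2.47 in PBRT16 and -4.43 in PBRT15 (adjusted p = 0.00259 and 0.000543 by limma). IL18R1 was not called in either line. The decoy receptor IL1R2 stayed at or below 8.82 and IL18RAP at or below 8.55, IL1RAPL2 stayed at or below 1.42, and IL1RL1 and IL1RL2 were listed at 0 in all libraries.

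Several genes that process IL1 beta or act beside it were higher in both lines. Of 12 genes for caspases, inflammasome sensors, gasdermins and calpains, 10 were tested, and 7 were higher and 0 lower in each line. Over all tested genes, 13.1% were higher in PBRT16 and 13.8% in PBRT15. Their median log2 fold change was 2.27 in PBRT16 and 1.50 in PBRT15, against a median near 0 over all tested genes (-0.002 in PBRT16 and -0.006 in PBRT15). The 3 tested genes not called were AIM2, CAPN1 and CAPN2. AIM2, an inflammasome sensor named after its values were seen, had 112.23 and 154.26 in PBRT16 cells, 128.45 and 146.97 in PBRT15 cells, and 293.11 and 227.99 in parental cells (log2 fold changes -0.97 in PBRT16 and -0.91 in PBRT15, adjusted p = 0.0249 and 0.0298 by limma, below a fold of 2). The called genes were CASP1, CASP4, PYCARD, NLRP1, NLRP3, GSDMD and GSDME in both lines. CASP1, the protease that cleaves the IL1 beta precursor, had 388.09 and 401.12 in PBRT16 cells, 323.06 and 434.74 in PBRT15 cells, and 3.26 and 1.28 in parental cells. Its log2 fold changes were 6.99 in PBRT16 and 6.91 in PBRT15 (adjusted p = 0.000324 and 0.000328 by limma). The inflammasome sensor NLRP1 had 108.09 and 128.96 in PBRT16 cells, 60.46 and 106.90 in PBRT15 cells, and 8.83 and 4.39 in parental cells (log2 fold changes 4.03 in PBRT16 and 3.48 in PBRT15). The sensor NLRP3 had 46.18 and 30.16 in PBRT16 cells, 20.42 and 10.80 in PBRT15 cells, and 2.49 and 0 in parental cells (log2 fold changes 4.36 in PBRT16 and 3.09 in PBRT15). Calls that did not survive leaving out 1 library were GSDMD in PBRT16 (without PBRT16 or parental replicate 1), and in PBRT15 GSDME (without replicate 2) and NLRP3 and PYCARD (without either PBRT15 library).

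Of 16 tested genes of the IL1 signaling cascade, 2 were higher and 1 lower in PBRT16, and 3 were higher and 1 lower in PBRT15, shares of 18.8% in PBRT16 and 25.0% in PBRT15, near the 23.1% and 23.6% of all genes. PELI1, a ubiquitin ligase of the IRAK complex, was lower by -2.14 in PBRT16 and -1.84 in PBRT15 (adjusted p = 0.00219 and 0.00331 by limma). The kinase IRAK1 (1.18) and IKBKG (1.09), a subunit of the kinase complex that activates NF-kB, were higher in PBRT16 on the log2 scale, and IRAK3 (2.10), IRAK4 (1.43) and the adaptor TOLLIP (1.19) were higher in PBRT15. The calls of IKBKG and TOLLIP were lost without parental replicate 1, and that of IRAK3 also without either PBRT15 library.

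Genes that IL1 is known to induce were split in direction. Of 22, 13 were tested, with 4 higher and 3 lower in PBRT16 and 7 higher and 2 lower in PBRT15. The shares called were 53.8% in PBRT16 and 69.2% in PBRT15, against 23.1% and 23.6% of all tested genes. CCL20, a chemokine, had 2.92 and 5.86 in PBRT16 cells, 1.54 and 1.46 in PBRT15 cells, and 294.09 and 274.89 in parental cells (log2 fold changes -5.78 in PBRT16 and -6.84 in PBRT15, adjusted p = 0.000333 and 0.00021 by limma). CCL20 passed the filter only through the parental libraries, so it could only be called lower. TNFAIP6, a hyaluronan-binding protein, was lower in both lines (log2 fold changes -2.79 in PBRT16 and -3.41 in PBRT15), a call that in PBRT16 was lost without any 1 library of PBRT16 or parental cells. The prostaglandin synthase PTGES went the other way, with 80.12 and 96.53 in PBRT16 cells, 300.72 and 370.45 in PBRT15 cells, and 3.25 and 1.02 in parental cells (log2 fold changes 4.92 in PBRT16 and 6.84 in PBRT15, adjusted p = 0.00113 and 0.000466 by limma). BIRC3, which encodes cIAP2, was higher in PBRT16 at 2.92 (adjusted p = 0.000426 by limma), and was 2.31 higher in PBRT16 than in PBRT15 (adjusted p = 0.00275 by limma). The chemokine CCL2 was higher by 1.63 (log2) in PBRT16 and 1.69 in PBRT15, but its call was lost without PBRT16 replicate 1 in that line and without either PBRT15 library in the other. CXCL8, named after its values were seen, had 353.12 and 279.38 in PBRT16 cells, 329.93 and 285.41 in PBRT15 cells, and 145.57 and 99.66 in parental cells (log2 fold changes 1.38 in PBRT16 and 1.34 in PBRT15), a call lost without replicate 1 of the resistant line. Of these genes, MMP1 was lower in PBRT16 at -1.65, and PTGS2 and NFKBIZ were higher in PBRT15 at 4.30 and 1.99, and each of these calls was lost without 1 or more single libraries.

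IL6 itself was among the strongly raised genes of both lines. IL6 (chr7:22725884-22732002, plus strand) had 2832.05 and 3408.13 in PBRT16 cells, 2108.89 and 2854.71 in PBRT15 cells, and 40.58 and 54.60 in parental cells. All 4 resistant libraries lay far above both parental libraries, and the lines overlapped with each other. For IL6 the log2 fold change was 6.01 ± 0.24 (SE) in PBRT16, a 64.6-fold higher value (adjusted p = 0.000191 by limma), and 5.67 ± 0.24 in PBRT15, a 51.1-fold higher value (adjusted p = 0.000222 by limma). Under 17 other settings the log2 fold change stayed between 5.80 and 6.22 in PBRT16 and between 5.46 and 5.89 in PBRT15.

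Fibroblasts are a known source of IL6, and 7 of 8 fibroblast markers were tested, of which 3 were called higher in PBRT16 and 6 in PBRT15. Over all tested genes, 13.1% were called higher in PBRT16 and 13.8% in PBRT15. The 8 markers summed to 18812 and 25118 in PBRT16 cells, 136186 and 146565 in PBRT15 cells, and 6914 and 6033 in parental cells. COL1A2, a collagen chain, had 19.88 and 15.44 in PBRT16 cells, 38539.61 and 41286.81 in PBRT15 cells, and 14.03 and 23.17 in parental cells. THY1, a fibroblast surface marker, had 8.14 and 6.84 in PBRT16 cells, 19572.85 and 19758.43 in PBRT15 cells, and 0 and 4.46 in parental cells. COL1A1, PDGFRB and DCN did move with IL6 in both lines. Their log2 fold changes were 9.06, 4.79 and 2.90 in PBRT16, and 11.47, 3.96 and 4.30 in PBRT15. PDGFRA was most of the parental sum, with 6707.98 and 5673.41 in parental cells. Its log2 fold change was -0.70 in PBRT16, which was not called, and 1.23 in PBRT15, called higher. COL3A1 was not called in either line, and LUM stayed at or below 4.12 in every library. The part of cells with fibroblast markers in the IL6 difference was not tested. The 5 endothelial markers summed to 32.01 and 38.26 in PBRT16 cells, 249 and 250.1 in PBRT15 cells, nearly all of it TEK, and 15.95 and 41.78 in parental cells.

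The other IL6 family ligands among the members fell while IL6 rose. LIF, leukemia inhibitory factor (chr22:30240453-30246759, minus strand), had 1129.36 and 1317.16 in PBRT16 cells, 1091.05 and 2756.15 in PBRT15 cells, and 11967.95 and 13775.38 in parental cells. The parental libraries lay above all resistant ones, and the PBRT15 libraries differed widely from each other. LIF had a log2 fold change of -3.40 ± 0.45 (SE) in PBRT16 (adjusted p = 0.00509 by limma) and -2.89 ± 0.45 in PBRT15 (adjusted p = 0.0081 by limma). The value for PBRT15 was -2.22 without PBRT15 replicate 1 and -3.56 without PBRT15 replicate 2, and the call held in each case. Per kb of exon, the level of LIF was 0.438 times that of IL6 in PBRT16 cells, 0.865 times in PBRT15 cells and 302 times in parental cells.

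IL11, which signals through IL11RA and gp130 (chr19:55364382-55370463, minus strand), had 157.80 and 125.50 in PBRT16 cells, 67.46 and 58.43 in PBRT15 cells, and 439.43 and 671.86 in parental cells. No groups overlapped. Against parental cells, the log2 fold change was -1.94 ± 0.25 (SE) in PBRT16 (adjusted p = 0.00489 by limma) and -3.09 ± 0.25 in PBRT15 (adjusted p = 0.0013 by limma). Its receptor IL11RA had 74.84 and 135.60 in PBRT16 cells, 73.61 and 138.59 in PBRT15 cells, and 93.38 and 43.26 in parental cells, which overlapped and were not called.

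Of 8 further ligands or ligand subunits of the IL6 family, 3 were tested. CLCF1, a ligand of the CNTF receptor, was higher in both lines, with 142.50 and 130.14 in PBRT16 cells, 239.62 and 269.15 in PBRT15 cells, and 61.67 and 67.27 in parental cells (log2 fold changes 1.07 in PBRT16 and 1.96 in PBRT15, adjusted p = 0.00403 and 0.000744 by limma). CNTF was lower in PBRT15 at -1.15 (adjusted p = 0.015 by limma), a call lost without PBRT15 replicate 2 or either parental library, and had -0.83 in PBRT16, which was not called. OSM, which encodes oncostatin M, and CTF1 stayed at or below 4.12, EBI3 reached 13.13 in PBRT15 replicate 2, and IL27 and IL31 were listed at 0 in all 6 libraries.

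The shared receptor chain rose in both lines. IL6ST (chr5:55935095-55995022, minus strand) had 19601.14 and 21010.99 in PBRT16 cells, 20826.70 and 23093.99 in PBRT15 cells, and 4518.69 and 5546.07 in parental cells. The resistant lines overlapped with each other and lay well above the parental cells. IL6ST had a log2 fold change of 2.02 ± 0.15 (SE) in PBRT16 (adjusted p = 0.00104 by limma) and 2.13 ± 0.15 in PBRT15 (adjusted p = 0.000903 by limma). IL6R, the chain that binds IL6 (chr1:154405193-154469450, plus strand), had 925.98 and 778.38 in PBRT16 cells, 1138.76 and 1316.04 in PBRT15 cells, and 621.71 and 649.28 in parental cells. The resistant values were higher without overlap, but the gene was not called. Its log2 fold change was 0.42 ± 0.15 (SE) in PBRT16 (95% interval 0.03 to 0.80, adjusted p = 0.0809 by limma) and 0.95 ± 0.15 in PBRT15 (95% interval 0.56 to 1.33, adjusted p = 0.00835 by limma), below the fold of 2 that a call needs. It was called in PBRT15 without a fold threshold, and without PBRT15 replicate 1 (1.05, adjusted p = 0.0245 by limma). Per kb of exon, the level of IL6ST was 13.8 times that of IL6R in PBRT16 cells, 10.4 times in PBRT15 cells and 4.59 times in parental cells.

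Other receptors of the IL6 family were higher in part. Of 6 tested, 4 were higher and 1 lower in PBRT16, and 3 were higher and 1 lower in PBRT15. These are shares of 83.3% in PBRT16 and 66.7% in PBRT15, against 23.1% and 23.6% of all tested genes. LIFR, the LIF receptor, had 33757.47 and 30724.91 in PBRT16 cells, 25757.36 and 28210.74 in PBRT15 cells, and 3855.13 and 3696.33 in parental cells (log2 fold changes 3.09 in PBRT16 and 2.84 in PBRT15, adjusted p = 0.000192 and 0.000241 by limma). OSMR, the oncostatin M receptor, had 16366.38 and 21789.13 in PBRT16 cells, 14241.00 and 14903.58 in PBRT15 cells, and 4949.18 and 4157.36 in parental cells (log2 fold changes 2.06 in PBRT16 and 1.68 in PBRT15, adjusted p = 0.00177 and 0.00305 by limma). The receptors for LIF and oncostatin M were thus higher in cells in which LIF was lower. OSM was near 0 in parental and resistant cells alike. CNTFR was higher from a low level, with 13.97 and 16.19 in PBRT16 cells, 10.42 and 25.61 in PBRT15 cells, and 0.93 and 2.27 in parental cells (log2 fold changes 2.67 in PBRT16 and 2.79 in PBRT15), and lost its call in each line without parental replicate 1 and, in PBRT16, without PBRT16 replicate 2. IL31RA, the IL31 receptor, had 882.82 and 876.85 in PBRT16 cells, 138.35 and 185.59 in PBRT15 cells, and 87.61 and 102.34 in parental cells. It was called in PBRT16 against parental cells (3.20, adjusted p = 0.000506 by limma) and against PBRT15 (2.45, adjusted p = 0.00384 by limma), and had 0.75 in PBRT15 against parental cells. IL27RA was lower (log2 fold changes -1.63 in PBRT16 and -1.69 in PBRT15, adjusted p = 0.00176 and 0.00157 by limma).

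**Figure D3:**
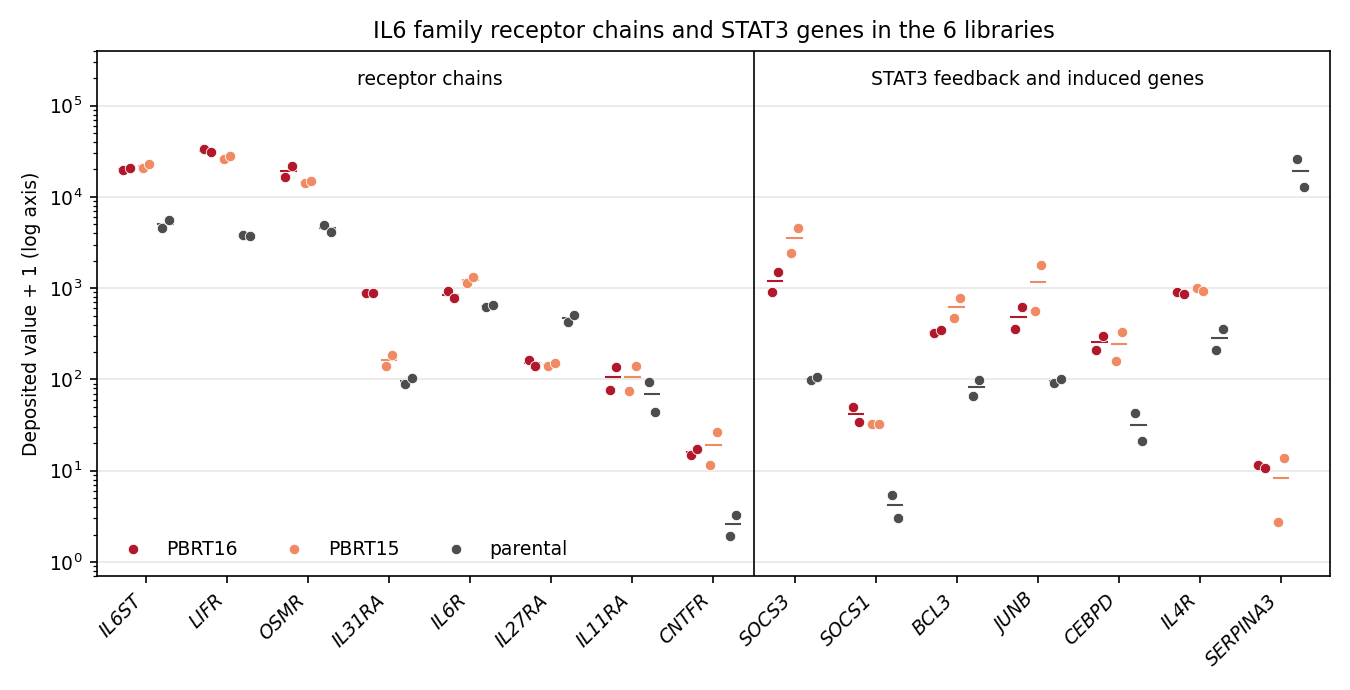
Deposited value + 1 (log axis) of IL6 family receptor chains and of STAT3 feedback and induced genes in each library. Points are single libraries and bars the mean of 2, for PBRT16, PBRT15 and parental cells from left to right. IL6ST, LIFR and OSMR lie at 14241.00 or above in all 4 resistant libraries and at 5546.07 or below in parental cells, SOCS3 lies at 912.91 or above in the resistant libraries and at 96.86 and 104.81 in parental cells, and SERPINA3 runs the other way.

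Inside the cell, the kinases and STAT factors of the IL6 pathway changed little. Of 13 tested genes for signal transduction and receptor shedding, 3 were higher in PBRT16 and 4 in PBRT15, and 0 were lower in either. The shares called, 23.1% in PBRT16 and 30.8% in PBRT15, were near the 23.1% and 23.6% of all tested genes. STAT5A had 142.22 and 104.24 in PBRT16 cells, 60.36 and 104.01 in PBRT15 cells, and 0.98 and 0 in parental cells (log2 fold changes 6.45 in PBRT16 and 5.83 in PBRT15, adjusted p = 0.000782 and 0.00104 by limma). ADAM10, a protease that sheds receptors including IL6R, was higher by 1.18 in PBRT16 and 1.05 in PBRT15, a call in PBRT15 that was lost without parental replicate 2, and JAK1 was higher in PBRT15 at 1.07. STAT3 itself, named after its values were seen, had 3897.86 and 3684.78 in PBRT16 cells, 3420.97 and 3582.99 in PBRT15 cells, and 1994.67 and 2147.07 in parental cells, log2 fold changes of 0.87 in PBRT16 and 0.76 in PBRT15 that were below a fold of 2.

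Several feedback inhibitors and targets of STAT3 were higher. Of 19 genes, 16 were tested, with 8 higher and 1 lower in PBRT16 and 9 higher and 1 lower in PBRT15. These are shares of 56.2% in PBRT16 and 62.5% in PBRT15, against 23.1% and 23.6% of all tested genes. OSMR stands in this list and among the receptors. The median log2 fold change of the list was 0.87 in PBRT16 and 1.70 in PBRT15. SOCS3, the inhibitor that binds gp130, had 912.91 and 1502.81 in PBRT16 cells, 2451.41 and 4603.59 in PBRT15 cells, and 96.86 and 104.81 in parental cells. Its log2 fold changes were 3.53 in PBRT16 and 5.05 in PBRT15 (adjusted p = 0.00294 and 0.00111 by limma). SOCS1, another inhibitor of JAK kinases, had 49.46 and 32.94 in PBRT16 cells, 31.66 and 31.69 in PBRT15 cells, and 4.40 and 2.05 in parental cells (log2 fold changes 3.35 in PBRT16 and 3.01 in PBRT15, adjusted p = 0.00232 and 0.00309 by limma). The transcription factor CEBPD was higher (log2 fold changes 3.06 in PBRT16 and 2.93 in PBRT15, adjusted p = 0.00948 and 0.0107 by limma). JUNB was higher by 2.30 (log2) in PBRT16 and 3.39 in PBRT15, but its call was lost in both lines without either parental library, and its PBRT15 value ran between 2.56 and 4.22 without single libraries. SERPINA3, an acute-phase protease inhibitor, was the exception, with 10.55 and 9.78 in PBRT16 cells, 1.72 and 12.96 in PBRT15 cells, and 25824.51 and 12704.42 in parental cells (log2 fold changes -10.67 in PBRT16 and -11.52 in PBRT15, adjusted p = 0.00114 and 0.000918 by limma).

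**Figure D4:**
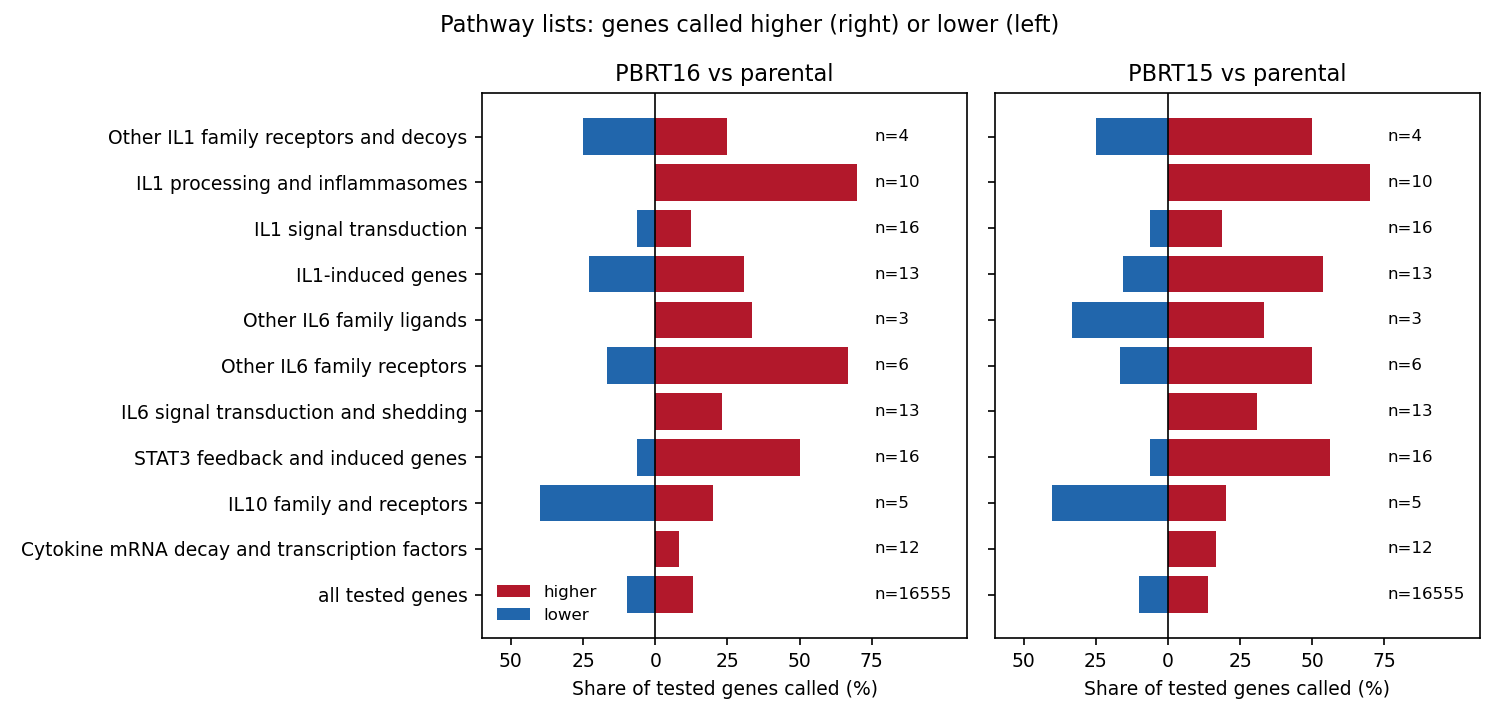
Share of tested genes called higher (right) or lower (left) in each pathway list, in PBRT16 and PBRT15 cells against parental cells, with the number tested. The list of IL1 processing and inflammasomes has 7 of 10 genes higher in each line, and the bottom bar gives the shares over all tested genes, 13.1% and 13.8% higher and 9.95% and 9.85% lower.

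Of 12 tested genes for cytokine mRNA decay and cytokine transcription factors, 1 was higher in PBRT16 and 2 in PBRT15, and 0 were lower. The shares called, 8.3% in PBRT16 and 16.7% in PBRT15, were below the 23.1% and 23.6% of all tested genes. ZFP36, a protein that degrades cytokine mRNAs, had 332.65 and 449.94 in PBRT16 cells, 829.14 and 2566.35 in PBRT15 cells, and 150.73 and 120.91 in parental cells, and was called in PBRT15 (3.42, adjusted p = 0.00919 by limma). Its relative ZFP36L2 was also called in PBRT15 (1.84, adjusted p = 0.000687 by limma), and ZFP36L1 in PBRT16 (1.01, adjusted p = 0.0229 by limma), at a fold so near 2 that 6 of 17 other settings lost it. Over all lists outside the members, 97 of 135 genes were tested, with 31 higher and 9 lower in PBRT16 and 38 higher and 9 lower in PBRT15. The shares called were 41.2% in PBRT16 and 48.5% in PBRT15, against the same 23.1% and 23.6% of all tested genes.

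IL24 (chr1:206897443-206904139, plus strand) was near the floor in all cells, with 1.77 and 2.40 in PBRT16 cells, 2.35 and 9.98 in PBRT15 cells, and 5.85 and 0 in parental cells. The groups overlapped and no difference was detectable at these values. IL19 and IL10, neighbours of the same family on chromosome 1, were called lower in both lines. Both passed the filter only through the parental libraries, so they could only be called lower, and their sizes depend on the pseudocount. IL19, at 54.5 kb from IL24, had 2.35 and 0 in PBRT16 cells, 0 and 0.57 in PBRT15 cells, and 90.43 and 70.62 in parental cells (log2 fold changes -5.47 in PBRT16 and -6.01 in PBRT15, adjusted p = 0.00316 and 0.0024 by limma). IL10, at 122.9 kb, had 3.50 and 0 in PBRT16 cells, 0.51 and 0 in PBRT15 cells, and 26.79 and 12.80 in parental cells, a low level at which its call was lost without PBRT16 replicate 2 in that line and without either PBRT15 library in both. Of the receptors of this family, IL10RB was called higher in PBRT16 (1.13, adjusted p = 0.00564 by limma, lost without parental replicate 1) and IL20RB in PBRT15 (1.12, adjusted p = 0.00261 by limma), while IL20RA stayed at or below 2.06.

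Between the resistant lines, both in PLX8394, the members had a smaller median difference than against parental cells, but a larger one than all tested genes. In PBRT16 against PBRT15 cells, 2 of 9 members were called, against 9.26% of all tested genes, 1 higher (4.49% of all genes) and 1 lower (4.77%). The median size of the difference was 0.53 over the members and 0.33 over all genes. IL1B was lower in PBRT16 (-1.16 ± 0.17 SE, adjusted p = 0.0187 by limma), at levels far below the parental cells in both lines. IL11 was higher in PBRT16 (1.15 ± 0.25 SE, adjusted p = 0.0448 by limma). Neither call was stable: without a filter on low values the adjusted p was 0.056 for IL1B and 0.109 for IL11, and leaving out a single PBRT16 or PBRT15 library left 0 or 1 of the 2. IL1R1 was lower by -1.27 in PBRT16 (95% interval -2.15 to -0.39, adjusted p = 0.07 by limma), a difference not called. IL6 differed by 0.34 (95% interval -0.27 to 0.95) and IL6ST by -0.11 (95% interval -0.51 to 0.28), and these intervals include no change and, for IL6, close to a 2-fold difference. Of the 97 tested pathway genes, 11 were called, 4 higher and 7 lower in PBRT16, among them SOCS2, lower by -2.29 (adjusted p = 0.00913 by limma).

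In level per kb of exon, the members ranked IL6ST, IL6, IL1R1, LIF, IL6R, IL1RAP, IL11, IL1B, IL24 and IL1A in PBRT16 cells, with 1684, 722, 370, 316, 122, 92.1, 52.9, 7.6, 1.05 and 0.232. In PBRT15 cells they ranked IL6ST, IL1R1, IL6, LIF, IL6R, IL1RAP, IL11, IL1B, IL24 and IL1A, with 1821, 874, 574, 497, 176, 67.8, 23.5, 17.3, 3.12 and 0.947. In parental cells they ranked IL1B, LIF, IL6ST, IL1RAP, IL11, IL1R1, IL1A, IL6R, IL6 and IL24, with 7804, 3325, 417, 340, 207, 134, 95, 90.9, 11 and 1.48. IL1B and LIF thus headed the parental order, and IL6ST, IL6 and IL1R1 headed both resistant ones. These levels divide by the merged exon length of each gene. Neighbours in the order whose library values per kb overlapped were IL1R1 and LIF in PBRT16 cells, IL6 and LIF as well as IL24 and IL1A in PBRT15 cells, and IL1A and IL6R in parental cells.

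The 5 genes with the pattern most like IL6 over the 6 libraries, by the smallest Euclidean distance of centred log2(value + 1) profiles, were BASP1 (0.54), SCARA3 (0.57), LXN (0.63), TOX (0.76) and GABRA3 (0.86). BASP1 had 3930.94 and 4004.95 in PBRT16 cells, 3823.63 and 4010.95 in PBRT15 cells, and 65.63 and 65.83 in parental cells. Among those most like IL1B were FGFBP2 (0.79), S100A1 (1.08), LINC02119 (1.37) and ITIH6 (1.41). S100A1, a calcium-binding protein, had 8.30 and 5.87 in PBRT16 cells, 28.98 and 21.33 in PBRT15 cells, and 14040.32 and 12928.23 in parental cells, and was like IL1B also lower in PBRT16 than in PBRT15 (-1.69, adjusted p = 0.0146 by limma). These distances rest on 6 libraries of 3 groups and describe a pattern only.

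The 3 nearest protein-coding genes on either side of each member gave 54 distinct genes besides the members, of which 27 were tested. In PBRT16, 3 were higher and 9 lower, where 13.1% of all tested genes were higher and 9.95% lower. In PBRT15, 3 were higher and 4 lower, where 13.8% of all tested genes were higher and 9.85% lower. The counts are small and were not tested against these shares. Around IL1A and IL1B on chromosome 2, the tested neighbours CKAP2L and SLC20A1 were lower as well, and NT5DC4, IL37, IL36G and IL36A did not pass the filter. CKAP2L, a mitotic spindle protein 9.3 kb from IL1A, had log2 fold changes of -1.29 in PBRT16 and -1.25 in PBRT15 (adjusted p = 0.0155 and 0.0169 by limma), and SLC20A1, a phosphate transporter at 110.1 kb, had -2.93 in PBRT16 and -2.38 in PBRT15 (adjusted p = 0.000434 and 0.000734 by limma). NT5DC4 between them stayed at or below 1.02. Beside IL6, HYCC1 at 157.4 kb was higher (log2 fold changes 1.82 in PBRT16 and 1.46 in PBRT15, adjusted p = 0.000605 and 0.00114 by limma), and TOMM7 at 80.6 kb was not called. IL31RA lies 12.2 kb from IL6ST, and both were called higher in PBRT16. OSM lies 16.1 kb from LIF and stayed at or below 4.12.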

How the data were processed

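RNA-seq of 6 libraries was used, 2 each of PBRT16 and PBRT15 cells in PLX8394 and parental 1205LuTR cells in DMSO. Paired-end reads came from strand-specific TruSeq libraries. The authors used RSEM for gene quantification (GRCh38, GENCODE annotation) and tested differences with DESeq2, by their methods. STAR 2.6.1a and Picard are named in the submitters' processing notes without a role. The deposited values are a normalized signal per gene, made by the authors from these quantifications and already on a common scale (median-of-ratios factors 1.0004 to 1.0132). The sources used here do not give how that signal was normalized. Dividing each library's values under 50 by its best single step made 6.9% to 43.3% of them whole (tolerance 0.01), so read counts were not recovered and depth is unknown. Count models were therefore not applied.

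IDs were matched without version to GENCODE v44 (60357 of 60617), and the 45 pseudoautosomal copies were dropped. Genes with a value, scaled to the library total, of 10 or more in 2 libraries and a sum of 15 or more were tested (16555). Genes that pass only through parental cells, such as IL1A, can only be called lower. Those below 10 in parental cells and above it in both resistant lines, such as CASP1 and STAT5A, can only be called higher. R 4.3.3 and limma 3.58.1 fitted log2(value + 1) for 3 groups without a replicate block (3 residual and 1.89 prior degrees of freedom). The steps were tested on simulated data. Per-kb levels divide by merged exon length.

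The members, lists and markers were chosen with earlier results of these data known. Genes named are every member and every other ligand and receptor of the 2 families; of each other list, the 3 largest rises and falls among called genes; the 5 genes most like IL6 and IL1B; the 3 nearest genes on either side of a member; and the markers. Not all of them are named, some are not reported here, and others are marked as named after their values were seen. SOD2 was left out of its list, as its symbol matched several IDs. The alternatives were 3 other scalings, 2 other pseudocounts, other filters, 4 libraries in the fit, a prior spread by expression level, no fold threshold, the replicate number as a block and the removal of each library in turn.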

Additional observations from a re-analysis of the deposited data

Results flagged for a closer look

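IL1B had 19.91 and 25.83 in PBRT16 cells and 47.84 and 56.09 in PBRT15 cells, so that its fall against the shared parental cells differed between the lines by -1.16 on the log2 scale (adjusted p = 0.0187 by limma). IL11 had 157.80 and 125.50 in PBRT16 cells and 67.46 and 58.43 in PBRT15 cells, a difference of 1.15 between the lines (adjusted p = 0.0448 by limma). Neither call was stable, and both were lost without a filter on low values (adjusted p = 0.056 for IL1B and 0.109 for IL11 by limma).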

How the results depend on the processing

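Of 18 differences of members from parental cells (9 members, 2 lines), 16 kept direction and call under every one of up to 17 alternatives; the exceptions were IL1R1 in PBRT16 and IL6R in PBRT15, whose values are given above, and the cause was not tested. IL1A could not be tested without parental replicate 1 or 2, since it passes the filter through those libraries. Where that filter was used, IL1A could only be called lower, so its stable direction is no support. Of 87 differences of pathway genes called against parental cells, 30 lost the call under 1 or more alternatives and 0 reversed. Without a fold threshold, the genes called numbered 6641 in PBRT16 and 6796 in PBRT15 against parental cells, and 2612 in PBRT16 against PBRT15 cells (3824, 3909 and 1533 with it).

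PBRT16 against PBRT15 depended most on the settings. The 2 member calls became 0 without a filter, 1 with 4 libraries in the fit and 0 to 2 when single libraries were left out, and the 11 pathway calls became 7, 6 and 5 to 9, or 17 without a fold threshold. The genes called ran between 777 and 1303 without single libraries. IL1A ran between -1.792 and 0.477, and LIF between -1.176 and 0.161, so their directions between the lines reversed without PBRT15 replicate 2. Other scalings moved the median of all genes by no more than 0.065 in size. With a replicate block, 1 member remained called in this comparison and no other member call changed, but same-numbered libraries did not deviate together (correlations 0.136, 0.038 and 0.018), and the numbers do not pair the libraries. Depth is unknown, so values near 0 cannot be given a counting limit.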
